A study of Mus musculus with 24 samples.

Results

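Apolipoproteins are the protein part of the particles that carry fat and cholesterol in blood. This account follows 10 mouse apolipoprotein genes, Apoa1, Apoa2, Apoa4, Apoa5, Apob, Apoc1, Apoc3, Apoe, Apoh and Apom, which were chosen by name with earlier results of these data known. Of these, 9 had a probe annotated to their symbol in a table of 25697 probes and 16593 named genes, and Apob was not analysed here. Apoc1 had 2 probes and the others 1 each, and each gene was read from its brightest probe over all arrays. The samples were gonadal adipose tissue, liver, kidney and aorta from mice aged 36 weeks on the C57BL/6J background, either wild type (WT) or heterozygous for a knockout of Glo1 (Glo1+/-), with 3 libraries per genotype in each tissue. Glo1 encodes glyoxalase 1, the enzyme that detoxifies methylglyoxal. The animals of both genotypes were fed standard chow, the labels record them as female, and each library was hybridised to 1 Illumina bead array. The design asks how transcript levels differ with loss of 1 Glo1 copy in each tissue.

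The liver secretes most apolipoproteins. Apoa1 and Apoa2 are the main proteins of high-density lipoprotein (HDL), Apoa4 is best known from intestine and liver, and Apoa5 and Apoc3 have opposite effects on plasma triglyceride clearance, since Apoa5 favours the action of lipoprotein lipase and Apoc3 slows clearance. Apoe is the ligand by which remnant particles bind their receptors, and it is made by macrophages, adipocytes and many other cells besides hepatocytes. Apoc1 is a small exchangeable apolipoprotein that macrophages also make, Apom carries sphingosine 1-phosphate on HDL and is made in liver and kidney tubule, and Apoh (β2-glycoprotein I) is a plasma protein that binds phospholipid.

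Several of these genes lie side by side. In the RefSeq annotation of GRCm38.p6, Apoa1, Apoc3, Apoa4 and Apoa5 follow each other on chromosome 9, and Apoc1 and Apoe are neighbours on chromosome 7 next to Apoc4. Apoa2 lies on chromosome 1, Apoh on chromosome 11 and Apom on chromosome 17. Promoter windows of RefSeq on this build were given for 8 of the 10 genes, and none for Apoc1 or Apoc3. The 250 bases upstream of the annotated start are shown for 3 genes whose patterns over the tissues were unlike each other: Apoa1 (chr9:46228380-46228629, plus strand), bright in liver and in some adipose libraries, Apoe (chr7:19699189-19699438, minus strand, the most upstream of 3 windows), bright in liver and all adipose libraries, and Apom (chr17:35131802-35132051, minus strand), bright in liver and kidney. Capitals mark the 30 bases next to the start.
Apoa1: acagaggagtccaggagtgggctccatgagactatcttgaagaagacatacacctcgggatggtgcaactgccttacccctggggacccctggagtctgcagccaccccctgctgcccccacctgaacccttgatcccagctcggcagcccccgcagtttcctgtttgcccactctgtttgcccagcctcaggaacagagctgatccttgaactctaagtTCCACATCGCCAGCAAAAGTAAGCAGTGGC
Apoe: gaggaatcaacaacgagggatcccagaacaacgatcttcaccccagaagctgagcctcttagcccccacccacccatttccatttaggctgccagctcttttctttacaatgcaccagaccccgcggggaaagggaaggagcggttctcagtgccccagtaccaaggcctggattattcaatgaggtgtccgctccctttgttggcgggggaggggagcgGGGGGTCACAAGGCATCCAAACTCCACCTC
Apom: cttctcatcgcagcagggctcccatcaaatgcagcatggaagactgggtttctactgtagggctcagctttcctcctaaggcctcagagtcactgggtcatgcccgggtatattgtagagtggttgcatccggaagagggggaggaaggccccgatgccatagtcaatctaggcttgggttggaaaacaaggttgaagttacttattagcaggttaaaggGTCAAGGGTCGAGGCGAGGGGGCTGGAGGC
A core of the direct repeat bound by HNF4 (CAAAGTCCA) and the first part of the HNF1 palindrome (GTTAATNA), 2 hepatocyte factor motifs, were searched on both strands. Neither was found in any of the 12 windows of these 8 genes. Over all 32851 mouse windows of 250 bases, 0.384% held the first and 2.33% the second. The absence of a match says only that these letters are not in these windows.

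Values below are the deposited ones, on a log2 scale with a floor near 8, and values close to it carry little information. Array medians lay between 8.22 and 8.25. Glo1 itself was lower in Glo1+/- libraries in all tissues, by 0.90 in adipose tissue, 0.88 in liver, 0.88 in kidney and 0.63 in aorta on the log2 scale, and the difference averaged over tissues was −0.82 ± 0.13 (SE, 24 libraries, limma adjusted p = 0.0066). It passed the test within liver and kidney and not within adipose tissue or aorta, the kidney call was lost in 4 of the 6 fits that left out 1 library (adjusted p up to 0.088), and the genotypes' Glo1 values overlapped in aorta alone. Some libraries carried markers of other tissues. The median of 19 measured hepatocyte markers ran from 8.29 to 11.86 over the 6 adipose libraries, and it reached 9.41 in WT kidney 1 and 9.27 in Glo1+/- aorta 3 against 8.13 to 8.39 in the other kidney and aorta libraries. The library labelled Glo1+/- aorta 3 also lacked the brown adipocyte marker Ucp1 (8.14 against 14.57 to 14.82 in the other 5 aorta libraries), had Lep, the adipocyte hormone leptin, at 14.73, and had the smooth muscle myosin Myh11 at 9.13 against 11.12 to 12.15. WT aorta 3 held the thymocyte gene Rag1 at 11.37, and Glo1+/- adipose 3 the epididymal gene Lcn8 at 14.83. Xist lay at the floor (8.10 to 8.25) and the Y-linked Eif2s3y between 10.33 and 11.28 in all 24 libraries, which goes against the label female. In bulk tissue, fewer cells of a type and less RNA per cell cannot be told apart.

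All 9 measured apolipoproteins had their highest mean in liver. Against kidney, 9 of 9 were higher in liver, where 15.8% of all probes were (limma, 24 arrays, average of both genotypes, adjusted p under 0.05), and none was higher in kidney, where 17.4% of all probes were. Against adipose tissue 8 of 9 were higher in liver (19% of all probes) and none in adipose tissue (21.4%). Against aorta 8 of 9 were higher in liver (16.5%) and none in aorta (21.9%). The median difference of the 9 genes was 2.78 over adipose tissue, 4.28 over kidney and 4.14 over aorta, beside 0.00 for all probes in each. The exceptions were Apoa2 against adipose tissue, with a difference of 1.87 ± 0.75 (SE, adjusted p = 0.051), and Apoc1 against aorta, with 0.68 ± 0.32 (adjusted p = 0.11). Without WT kidney 1 and Glo1+/- aorta 3, both passed the test, at 1.87 (adjusted p = 0.0071) and 0.55 (adjusted p = 0.0023), and the count was 9 of 9 in each of the 3 comparisons. Neither of these libraries is of liver or adipose tissue, so the Apoa2 difference itself did not change. The fit gives each probe 1 variance shared by all tissues, and these libraries entered it.

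**Figure D1:**
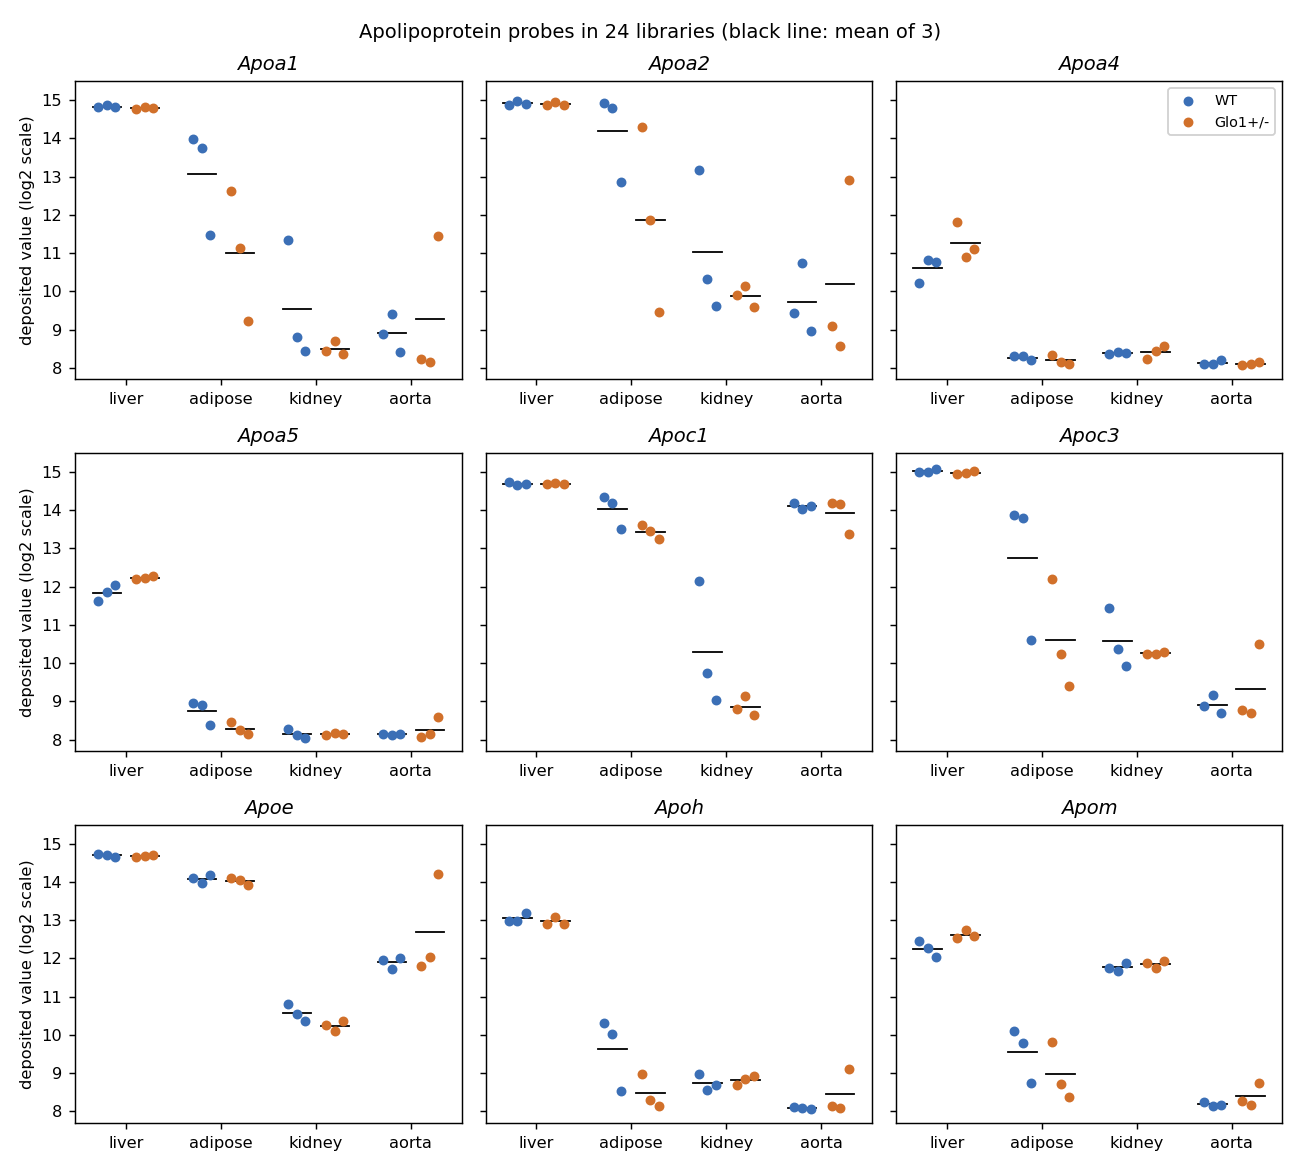
Deposited log2 value (vertical axis) of each of the 9 measured apolipoproteins in the 24 libraries, by tissue (horizontal axis) and genotype (WT blue, Glo1+/- orange), with a black line at the mean of each 3 libraries. The mean in liver is the highest for every gene, Apoe and Apoc1 are also bright in adipose tissue and aorta, Apom is also bright in kidney, and Apoa1, Apoa2 and Apoc3 spread widely over the adipose libraries.

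In liver, 5 of the 9 genes lay close to the top of the measured range. Apoc3, which slows clearance of triglyceride-rich particles, read between 14.94 and 15.07 in the 6 liver libraries and was within 0.07 of the brightest probe of each array. Apoa2 lay within 0.20 of it, Apoa1 within 0.27, Apoc1 within 0.41 and Apoe within 0.44. The SDs of these 5 genes over the 6 liver libraries were 0.03 to 0.05. The array maxima themselves were 14.96 to 15.09 in liver, which left these 5 genes little room above. The other 4 genes lay lower in the range, Apoh at 12.91 to 13.18, Apom at 12.04 to 12.75, Apoa5 at 11.63 to 12.29 and Apoa4 at 10.22 to 11.81.

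Apoa4, Apoa5 and Apoh were near the floor outside liver. Apoa4 read 8.07 to 8.58 in the 18 other libraries, where its adipose range overlapped those of kidney and aorta, while kidney (8.24 to 8.58) lay above aorta (8.07 to 8.21). Apoa5 stayed between 8.05 and 8.58 in kidney and aorta and reached 8.96 in WT adipose 1 and 8.90 in WT adipose 2. Its liver level exceeded that in kidney by 3.89 ± 0.10 and that in aorta by 3.84 ± 0.10 (SE). Apoh read 8.56 to 8.99 in kidney, 8.07 to 8.15 in 5 aorta libraries and 9.12 in Glo1+/- aorta 3, and in adipose tissue it reached 10.30 and 10.03 in WT adipose 1 and 2. These 2 adipose libraries were also the ones with the highest hepatocyte marker medians, 11.86 and 11.40.

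Apoe, the receptor ligand, was bright in adipose tissue as well as in liver. Its 6 adipose values were 14.11, 13.96 and 14.18 in WT mice, then 14.11, 14.05 and 13.92 in Glo1+/-, a range of 0.26 over libraries in which the hepatocyte marker median ranged over 3.57. In liver it read 14.65 to 14.72, which is above adipose tissue by 0.63 ± 0.25 (SE, adjusted p = 0.0496) with no overlap of the ranges. That call was lost in 21 of the 24 fits that left out 1 library (adjusted p up to 0.093) and held in a fit of these 2 tissues alone (adjusted p = 3.9e-07). The fit of 24 arrays gave each probe 1 variance shared by all tissues. The SD of Apoe over 6 libraries was 0.03 in liver, 0.10 in adipose tissue, 0.24 in kidney and 0.95 in aorta. In aorta Apoe read 11.97, 11.74 and 12.02 in the WT libraries against 11.79, 12.04 and 14.22 in the Glo1+/- ones. The last of these, Glo1+/- aorta 3, lay 2.25 above the median of the other 5 and above every adipose library. Kidney was lowest, from 10.12 to 10.81, by 1.89 ± 0.25 below aorta (adjusted p = 1.95e-06) and by 1.56 without WT kidney 1 and Glo1+/- aorta 3. The median of 10 measured macrophage markers followed the same order outside liver, 10.69 to 11.04 in adipose tissue, 9.44 to 9.97 in 5 aorta libraries with 11.01 in Glo1+/- aorta 3, and 8.55 to 8.75 in kidney, while liver lay at 9.55 to 9.96. The median of 7 measured adipocyte markers followed that order as well, at 14.31 to 14.59 in adipose tissue and 8.11 to 9.34 in kidney. It was 11.24 to 11.41 in 5 aorta libraries, 14.63 in Glo1+/- aorta 3 and 8.11 to 8.16 in liver. The part of either marker list in the Apoe levels was not tested.

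Apoc1 was also bright in adipose tissue and differed from its chromosomal neighbour in aorta. Its adipose values were 14.36, 14.20 and 13.50 in the WT libraries against 13.61, 13.45 and 13.24 in the Glo1+/- ones. They spanned 1.12, against 0.26 for Apoe. These libraries had the same order by the hepatocyte marker median, whose part in the Apoc1 values was not tested. The Apoc1 values in aorta were 14.18, 14.04 and 14.11 in the WT libraries against 14.18, 14.17 and 13.39 in the Glo1+/- ones. The library that was highest for Apoe was thus lowest for Apoc1. The median of 7 brown adipocyte markers was 13.33 to 13.72 in the other 5 aorta libraries and 8.28 in Glo1+/- aorta 3. The aorta libraries thus held brown fat signal in all but that one, and its part in the Apoc1 values was not tested. In kidney Apoc1 read 8.64 to 9.73 in 5 libraries and 12.14 in WT kidney 1. The aorta level exceeded that of kidney by 4.43 ± 0.32 (SE, adjusted p = 1.58e-10). Aorta and adipose tissue did not differ by the test (0.29 ± 0.32 higher in aorta, adjusted p = 0.60), but did without WT kidney 1 and Glo1+/- aorta 3 (0.42, adjusted p = 0.022). The second Apoc1 probe had the same order of the tissue means, spanning 14.49 to 14.72 among liver libraries, 12.07 to 13.45 among those of aorta, 11.79 to 13.54 among adipose ones and 8.27 to 10.66 among those of kidney, and its excess in liver over aorta was 1.52 and passed the test. Apoc4, which lies between Apoc1 and Apoc2 on chromosome 7, read 14.43 to 14.56 in liver, 8.08 to 8.50 in the 5 aorta libraries other than Glo1+/- aorta 3, and 10.98 in that one. Apoc2, the activator of lipoprotein lipase, read 10.67 to 11.16 in liver and 8.40 to 8.62 in aorta.

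Apom, the sphingosine 1-phosphate carrier, was the member with a kidney level near that of liver. Its kidney values were 11.74, 11.68 and 11.88 in the WT libraries against 11.89, 11.75 and 11.94 in the Glo1+/- ones, which is below liver by 0.62 ± 0.21 (SE, adjusted p = 0.023), above adipose tissue by 2.56 ± 0.21 (adjusted p = 9.52e-10) and above aorta by 3.52 ± 0.21 (adjusted p = 4.47e-12). WT kidney 1 was not set apart from the other kidney libraries. In adipose tissue Apom read 10.11, 9.79 and 8.73 in the WT libraries against 9.81, 8.72 and 8.38 in the Glo1+/- ones. The libraries WT adipose 1 and Glo1+/- adipose 1, with 10.11 and 9.81, also held the highest medians of 12 kidney tubule markers in that tissue, 9.76 and 11.31, against 8.12 to 8.54 in the other 4. Uromodulin (Umod), a tubule gene, read 11.12 and 12.81 there. WT adipose 2, with Apom at 9.79, had a tubule marker median of 8.53. The hepatocyte marker medians of WT adipose 1, WT adipose 2 and Glo1+/- adipose 1 were 11.86, 11.40 and 9.79. In the remaining adipose libraries they were 8.29 to 9.33. The part of either marker list in the Apom values was not tested.

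Between the other tissues the members split. Kidney was above adipose tissue for 1 of 9, Apom (17.3% of all probes), and below it for 6 of 9 (19.4%), with Apoa4 and Apoh not passing the test. Kidney was above aorta for 2 of 9, Apom and Apoc3 (15.7%), and below it for 2 of 9, Apoc1 and Apoe (19.3%). Adipose tissue was above aorta for 7 of 9 (14.2%) and below it for 0 of 9 (13%). In each of the 7 genes the adipose range overlapped the aorta range. Apoa1, for example, read 9.22 in Glo1+/- adipose 3, below 9.42 in WT aorta 2. For Apoe and Apom the overlap came from Glo1+/- aorta 3 alone. The other aorta libraries read 11.74 to 12.04 for Apoe, against 13.92 to 14.18 in adipose tissue. For Apom they read 8.15 to 8.28, against 8.38 to 10.11 in adipose tissue. The hepatocyte marker median ran from 8.29 to 11.86 over the adipose libraries, and its part in the counts that involve adipose tissue was not tested. The Apoc3 excess in kidney over aorta, 1.30 ± 0.49 (SE, adjusted p = 0.041), was carried by kidney values of 9.94 to 10.38 in 5 libraries and 11.45 in WT kidney 1, against 8.70 to 9.17 in 5 aorta libraries and 10.49 in Glo1+/- aorta 3. It was lost in 10 of the 24 fits that left out 1 library (adjusted p up to 0.117, without WT kidney 1). Of the other calls between tissues, that of Apoc3 in kidney below adipose tissue was lost in 18 of these fits, that of Apoa5 in adipose tissue above aorta in 5, that of Apom in liver above kidney in 2 and that of Apoc1 in liver above adipose tissue in 1.

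The HDL proteins Apoa1 and Apoa2 and the clearance inhibitor Apoc3 spread most over the adipose libraries. Apoa1 read 13.98, 13.76 and 11.47 in the WT libraries against 12.62, 11.14 and 9.22 in the Glo1+/- ones. Apoa2 read 14.92, 14.79 and 12.85 in the WT libraries against 14.30, 11.87 and 9.45 in the Glo1+/- ones. Apoc3 read 13.87, 13.80 and 10.60 in the WT libraries against 12.20, 10.23 and 9.39 in the Glo1+/- ones. For all 3 genes WT 1 was highest, Glo1+/- 3 lowest and the genotypes overlapped, because Glo1+/- 1 lay above WT 3. From lowest to highest library the span was 4.76 for Apoa1, 5.47 for Apoa2 and 4.48 for Apoc3. The hepatocyte marker median in the same order was 11.86, 11.40 and 9.33 in the WT libraries against 9.79, 8.98 and 8.29 in the Glo1+/- ones, so it had the same highest and lowest library and the same overlap. Of the 19 hepatocyte markers, 15, 14 and 11 exceeded 9 in the WT libraries and 14, 9 and 3 in the Glo1+/- libraries. Transthyretin (Ttr), a plasma carrier protein of hepatocytes, read 14.29, 14.26 and 12.19 in the WT libraries against 12.92, 11.86 and 9.92 in the Glo1+/- ones. The albumin (Alb) probe was dim even in liver, at 8.96 to 9.86, and at the floor in adipose tissue.

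**Figure D2:**
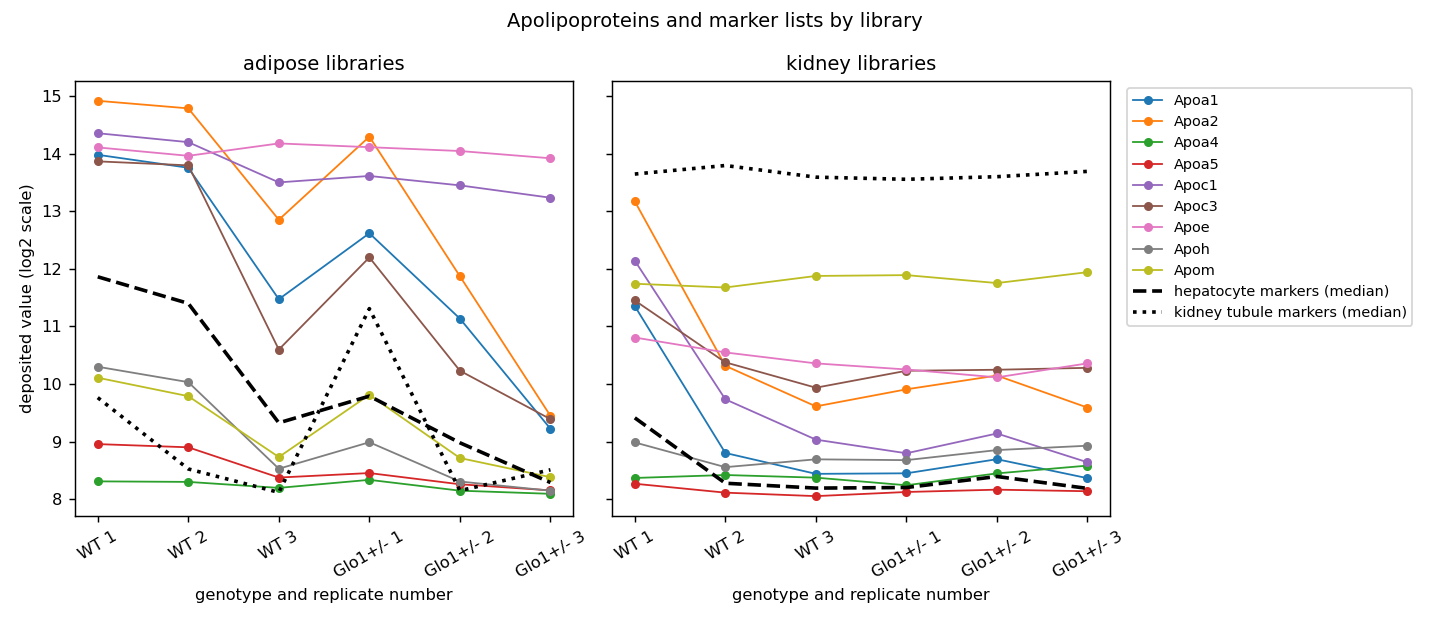
Deposited log2 values of the 9 apolipoproteins (coloured lines) in the 6 adipose libraries (left) and the 6 kidney libraries (right), with the median of 19 hepatocyte markers (dashed) and of 12 kidney tubule markers (dotted); lines join libraries only to guide the eye. In adipose tissue Apoa1, Apoa2 and Apoc3 fall and rise with the hepatocyte marker median while Apoe stays between 13.92 and 14.18, and in kidney WT 1 stands above the others for Apoa1, Apoa2, Apoc1 and Apoc3.

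In adipose tissue all 9 measured apolipoproteins had a lower mean in Glo1+/- than in WT, and none passed the test (limma, adjusted p under 0.05), where 0.00389% of all probes did. The median difference of the 9 genes was −0.59, beside 0.00 for all probes. The differences were −2.31 ± 1.10 for Apoa2 (SE, n = 3 per genotype, adjusted p = 0.47), −2.15 ± 0.97 for Apoc3 (0.45), −2.08 ± 0.90 for Apoa1 (0.44) and −1.14 ± 0.44 for Apoh (0.41). Apoe differed by −0.06 ± 0.08 (0.83) and Apoa4 by −0.08 ± 0.06 (0.69). For 0 of 9 genes were the genotypes free of overlap, where 17.5% of all probes were. The 2 libraries of replicate number 1 deviated together in this tissue (r = 0.68), and both held kidney tubule markers. With the replicate number as a block 1 member passed the test, Apoa1 (−2.08, adjusted p = 0.035). Without WT adipose 3, Apoc1 (−0.84, adjusted p = 0.043) and Apoh (−1.69, adjusted p = 0.043) passed. The hepatocyte markers moved with the same libraries, and their part in these differences was not tested.

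In liver the brightest probes of the bright members did not separate the genotypes, and 3 of the dimmer ones did without passing the test. Apoa4 read 10.22, 10.83 and 10.77 in the WT libraries against 11.81, 10.89 and 11.10 in the Glo1+/- ones, a difference of 0.66 ± 0.21 (SE, n = 3 per genotype, adjusted p = 0.20). Apoa5 read 11.63, 11.86 and 12.04 in the WT libraries against 12.20, 12.22 and 12.29 in the Glo1+/- ones, a difference of 0.39 ± 0.11 (0.16). Apom read 12.45, 12.28 and 12.04 in the WT libraries against 12.53, 12.75 and 12.58 in the Glo1+/- ones, a difference of 0.37 ± 0.12 (0.21). In each of these the lowest Glo1+/- library lay above the highest WT library, which was so for 17.6% of all probes in either direction. The remaining 6 genes differed by −0.07 to −0.01 on their brightest probe. The second Apoc1 probe also separated the genotypes, with 14.69, 14.72 and 14.63 in the WT libraries against 14.52, 14.56 and 14.49 in the Glo1+/- ones, a difference of −0.16 ± 0.07 (0.42). No member passed the test, where 0.658% of all probes did. The array slide touched this comparison, since WT liver 1 and 2 shared a slide with the adipose libraries and the other 4 liver libraries lay on a second one. Within the second slide, which held 1 WT library, Apom passed the test at 0.58 (adjusted p = 0.0033) and Apoa5 differed by 0.20 (adjusted p = 0.35). The slide block sets the same WT library against the 3 Glo1+/- ones and gave the same 0.58 for Apom (adjusted p = 0.0089), so both values assume that WT liver 3 varies like the other libraries. Without WT liver 3 Apoa5 passed at 0.49 (adjusted p = 0.0069).

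In kidney 1 WT library set the size of the differences. Apoa1 read 11.35, 8.80 and 8.44 in the WT libraries against 8.45, 8.70 and 8.37 in the Glo1+/- ones. Apoa2 read 13.17, 10.32 and 9.61 in the WT libraries against 9.91, 10.15 and 9.59 in the Glo1+/- ones. Apoc1 read 12.14, 9.73 and 9.04 in the WT libraries against 8.80, 9.14 and 8.64 in the Glo1+/- ones. Each was highest in WT kidney 1, where 12 of the 19 hepatocyte markers exceeded 9 against 2 to 5 in the other kidney libraries, and the kidney tubule marker median there was 13.65 against 13.56 to 13.79. The differences were −1.03 ± 0.51 for Apoa1 (SE, n = 3 per genotype, adjusted p = 0.56), −1.15 ± 0.61 for Apoa2 (0.59) and −1.44 ± 0.53 for Apoc1 (0.38). Without WT kidney 1 they were −0.12, −0.08 and −0.52, and that of Apoc3 turned from −0.33 to 0.10. Apoe read 10.81, 10.55 and 10.36 in the WT libraries against 10.25, 10.12 and 10.36 in the Glo1+/- ones, a difference of −0.33 ± 0.12 (adjusted p = 0.35) that was −0.21 without WT kidney 1. No member passed the test (0.381% of all probes) and none had genotypes free of overlap (15.4%). Apoa4, Apoa5, Apoh and Apom differed by at most 0.10. The part of hepatocyte RNA in the values of WT kidney 1 was not tested.

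In aorta the library labelled Glo1+/- aorta 3 set the differences. Apoa1 read 8.88, 9.42 and 8.41 in the WT libraries against 8.24, 8.16 and 11.44 in the Glo1+/- ones, and Apoa2 read 9.44, 10.75 and 8.96 in the WT libraries against 9.11, 8.56 and 12.92 in the Glo1+/- ones. That library was the highest of the 6 for 7 of the 9 genes, with Apoc1 and Apoa4 the exceptions, and 11 of the 19 hepatocyte markers exceeded 9 in it against 0 to 5 in the other aorta libraries. The differences were 0.38 ± 0.81 for Apoa1 (SE, n = 3 per genotype, adjusted p = 0.96), 0.48 ± 1.06 for Apoa2 (0.96) and 0.77 ± 0.57 for Apoe (0.95). Without that library those of Apoa1 and Apoa2 turned to −0.70 and −0.89, and without both it and WT aorta 3 Apoa1 passed the test at −0.95 (adjusted p = 0.018, 2 libraries per genotype). No member passed the test in the full set. Nor did any of the 25697 probes (0%), although 917 had an unadjusted p under 0.05. No member had genotypes free of overlap (10.1% of all probes).

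**Figure D3:**
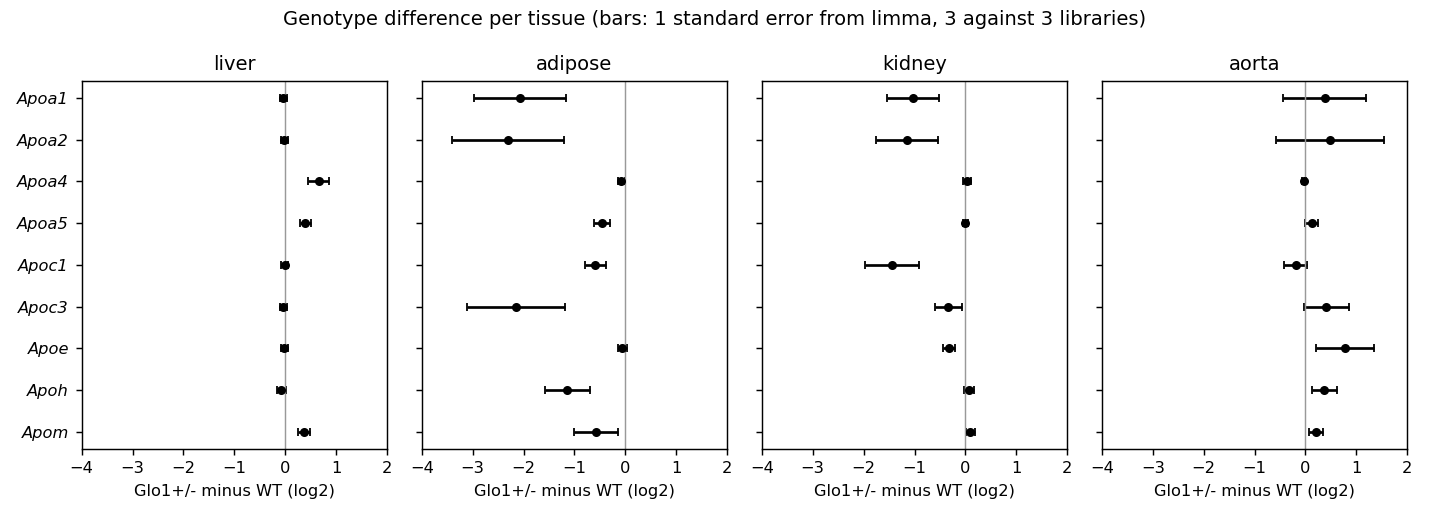
Difference Glo1+/- minus WT on the log2 scale (horizontal axis) for the 9 measured apolipoproteins (vertical axis) in each tissue, with bars of 1 standard error from limma (3 against 3 libraries). Standard errors are 0.07 to 0.21 in liver, those of Apoa2 reach 1.10 in adipose tissue and 1.06 in aorta, and no difference passes the test.

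Averaged over the 4 tissues, no member differed between genotypes past the test, where 0.269% of all probes did. The average differences ran from −0.75 ± 0.53 for Apoa2 (SE, 12 against 12 libraries, adjusted p = 0.69) to 0.15 ± 0.09 for Apoa4 (0.60). Apoc1 had the smallest p of the 9, with −0.56 ± 0.23 (0.41). The genotype effect was not shown to differ between tissues for any member (F test of the interaction, 0.28% of all probes called). The smallest adjusted p of the interaction was 0.22, for Apoa5, which had differences of 0.39 in liver and −0.46 in adipose tissue. Without WT adipose 3, Apoa5 and Apoh passed that test.

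Other genes of lipoprotein metabolism were read from 4 lists with 55 measured genes, chosen by name. Earlier results of these data were known when the lists were chosen, so the counts below only describe them. In adipose tissue, liver and aorta 0 of 55 passed the test, where 0.00389%, 0.658% and 0% of all probes did. In kidney 5 of 55 passed it, 3 higher and 2 lower in Glo1+/-, where 0.381% of all probes did in either direction. The counts of 0 depended on which libraries and settings were used. In adipose tissue 6 of 55 passed without WT adipose 3 and 2 with the replicate number as a block. In liver 6 passed without WT liver 3, 1 without WT liver 2 and 7 under either slide setting, and in aorta 5 passed without WT aorta 3 and Glo1+/- aorta 3. The fit of all 24 arrays called 1 in adipose tissue, 1 in liver and 0 in kidney. Of 16 measured genes of lipoprotein assembly and secretion, 2 rose and 1 fell, of 10 genes of remodelling in plasma 1 rose and 1 fell, and of 13 other apolipoproteins and 16 receptor and efflux genes none passed. The list medians in kidney were 0.02, −0.03, −0.07 and 0.00 in that order, beside 0.00 for all probes.

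Angptl4, a secreted inhibitor of lipoprotein lipase, rose in kidney: it read 11.13, 11.72 and 12.09 in the WT libraries against 12.76, 12.76 and 12.64 in the Glo1+/- ones, a difference of 1.07 ± 0.17 (SE, n = 3 per genotype, adjusted p = 0.020). Lipoprotein lipase itself (Lpl), which hydrolyses the triglyceride of circulating particles, fell: it read 14.57, 14.52 and 14.48 in the WT libraries against 13.90, 13.98 and 14.21 in the Glo1+/- ones, a difference of −0.49 ± 0.08 (0.015). Nr1h4, the bile acid receptor FXR, rose from 12.55, 12.36 and 12.53 to 13.28, 13.08 and 13.19, a difference of 0.70 ± 0.08 (0.0056). Plin2, a protein that coats lipid droplets, rose by 0.44 ± 0.08 (0.048), with 9.41, 9.33 and 9.51 in the WT libraries against 9.91, 9.79 and 9.87 in the Glo1+/- ones. Pdia3, a protein disulfide isomerase of the endoplasmic reticulum, fell by 0.48 ± 0.07 (adjusted p = 0.012), with 13.34, 13.36 and 13.32 in the WT libraries against 12.82, 12.86 and 12.90 in the Glo1+/- ones. In each of the 5 genes, which were chosen by the test on these same libraries, the genotypes did not overlap. That was so for 15.4% of all probes in kidney.

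These kidney calls did not hold under every setting. All 3 WT libraries and Glo1+/- kidney 1 shared a slide, and the value within that slide sets 1 Glo1+/- library, assumed to vary like the others, against 3 WT ones. All 5 genes kept their direction there, and of these Lpl alone passed the test (−0.62, adjusted p = 0.037). The slide block rests on the same Glo1+/- library, and with it Lpl and Nr1h4 passed. Nr1h4 passed without each library in turn, the count of the 5 dropped to 1 without WT kidney 2, to 2 without Glo1+/- kidney 1 or 2 and to 3 without WT kidney 1 or Glo1+/- kidney 3. With limma's prior variance held constant over the mean only Pdia3 passed, and in a fit of all 24 arrays none of the 5 did. WT kidney 3 held the adipocyte hormone Adipoq at 10.57 and WT kidney 2 at 9.48 against 8.11 to 8.66 in the other 4, and the part of fat in the Lpl and Angptl4 values was not tested.

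**Figure D4:**
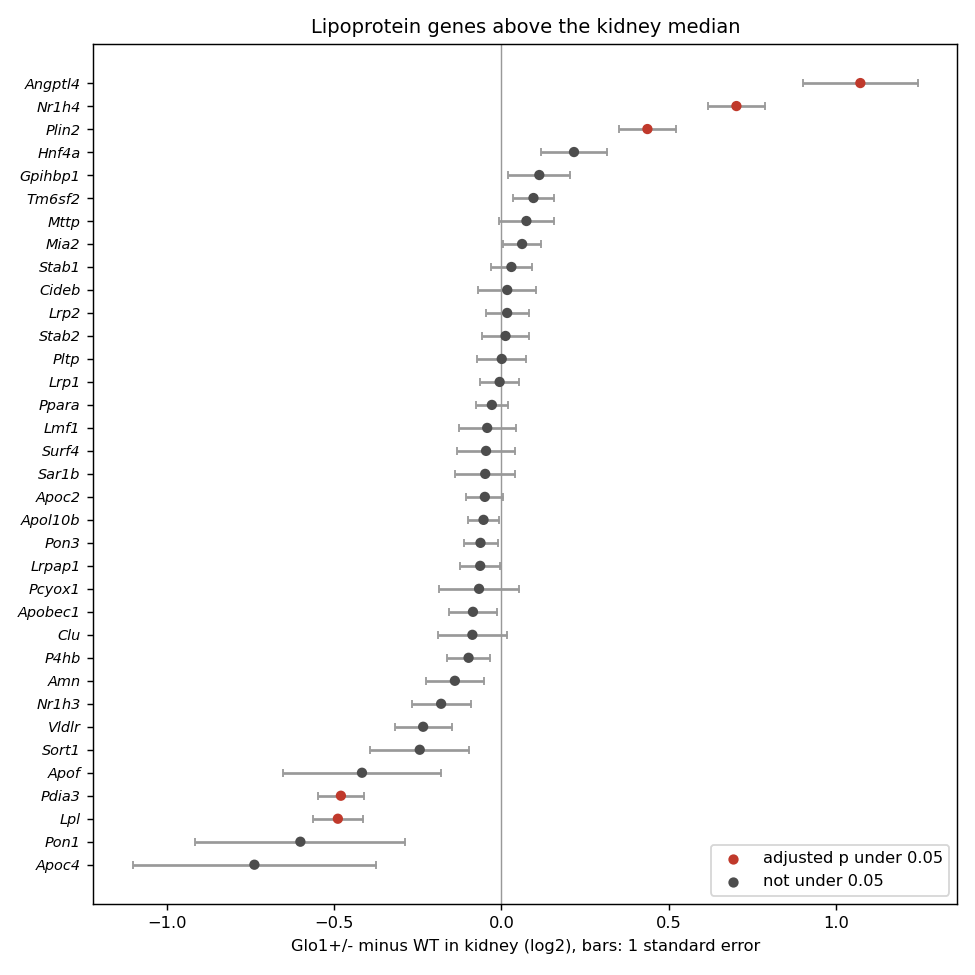
Difference Glo1+/- minus WT in kidney on the log2 scale (horizontal axis, bars of 1 standard error from limma, 3 against 3 libraries) for the 35 genes of the lipoprotein lists whose mean lay above the kidney median. Red points mark the 5 genes with an adjusted p under 0.05, of which Angptl4 (1.07) and Lpl (−0.49) lie at opposite sides.

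The list genes with the largest differences that did not pass the test, among those above the tissue median, were named in each tissue. In adipose tissue they were Apoc4, a liver apolipoprotein, at −2.05 ± 0.65 (SE, n = 3 per genotype, adjusted p = 0.35) and Apof, which inhibits cholesteryl ester transfer in human plasma, at −1.68 ± 0.69 (0.42). Apoc4 read 12.86, 12.31 and 10.90 in the WT libraries against 11.19, 9.95 and 8.77 in the Glo1+/- ones. With the replicate number as a block both passed, at an adjusted p of 0.022 for Apoc4 and 0.0499 for Apof. In liver they were Pltp, the phospholipid transfer protein, at −0.58 ± 0.20 (0.26) and Angptl4 at 0.54 ± 0.19 (0.26). Pltp was −0.27 without WT liver 2 and passed without WT liver 3 (−0.77, adjusted p = 0.023), and Angptl4 was 0.24 without WT liver 1 and passed without WT liver 3 (0.72, adjusted p = 0.028). In aorta they were Pon1, the HDL-bound paraoxonase, at −0.99 ± 0.63 (0.95) and Apoc4 at 0.79 ± 0.69 (0.95). In kidney the largest that did not pass were Apoc4 at −0.74 ± 0.36 (0.56) and Pon1 at −0.60 ± 0.31 (0.58). Aortic Pon1 read 12.33, 12.14 and 11.69 in the WT libraries against 11.82, 11.96 and 9.41 in the Glo1+/- ones, and both Pon1 and Apoc4 had their extreme aortic value in Glo1+/- aorta 3.

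The members were not 1 pattern across the 24 libraries. As a description over libraries that share tissue and slide, the Pearson correlation was 0.98 between Apoa1 and Apoa2 and between Apoa5 and Apoh, 0.81 between the neighbours Apoc1 and Apoe, 0.02 between Apoe and Apom and −0.28 between Apoc1 and Apom. Among 5282 genes with a range over 1, those most like the mean of the members were Mup21 (0.998), a major urinary protein, Mug1 (0.998), a protease inhibitor of plasma, the urea cycle enzyme Arg1 (0.995), Apoc4 (0.995) and the acute phase protein Crp (0.994). Those most like Apoe were Pid1 (0.991), the iron carrier transferrin Trf (0.988) and the protease inhibitor Serpina3n (0.985). Those most like Apom were Bhmt2 (0.996), an enzyme of methionine metabolism, Upb1 (0.996), of pyrimidine breakdown, and the glucose transporter Slc2a2 (0.996).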

How the data were processed

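Total RNA was measured on 24 Illumina bead arrays. Per the submitters' processing notes, the authors made the deposited values with lumi 2.32.0. The values are on a log2 scale, or a variance-stabilised scale close to it, so differences of dim probes can be understated. For the authors' background correction and normalization, the method is not given in the sources used here. Genes were named through the platform annotation, with 1 gene for 23978 of the 25697 probes and none for 1719. Sequences and gene order come from RefSeq tables of GRCm38.p6, and the build behind the probes is likewise not given.

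Each tissue was tested on its 6 arrays with limma 3.58.1 in R 4.3.3 (lmFit, eBayes with a trend on the mean), 2-sided, with Benjamini-Hochberg adjustment over all probes and a call at an adjusted p under 0.05. No probe was filtered out. A fit of 8 group means over 24 arrays gave the average genotype difference, the interaction and the tissue comparisons. Adipose tissue shared no slide with aorta or kidney, and liver shared none with aorta. In those comparisons tissue and slide cannot be told apart. The script was tested on simulated data. An error after ± is limma's standard error. An exact test of 3 against 3 cannot go under p = 0.1. The labels do not say whether libraries came from separate animals, so p-values cover the spread between these samples, and the number of arrays limits the precision.

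WT and Glo1+/- libraries share replicate numbers. The deviations of same-numbered libraries from their group means correlated in adipose tissue at 0.68, 0.17 and 0.35. Those of different-numbered adipose libraries correlated at −0.57 to 0.30. The value of 0.68 is that of WT adipose 1 and Glo1+/- adipose 1, whose kidney tubule marker medians were 9.76 and 11.31. These values do not settle whether the numbers pair libraries, and the block served as an alternative only. In liver same-numbered libraries correlated at 0.07, 0.05 and 0.23, in kidney at 0.06, 0.00 and −0.01 and in aorta at 0.11, −0.12 and −0.04.

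The members, lists and tests were chosen with earlier results of these data known. Named genes are all members, Glo1, per tissue up to 6 called genes of the lipoprotein lists and the 2 largest not called above the tissue median, the genes most alike in pattern, and markers of libraries that stood apart. The apolipoprotein and marker lists were matched by symbol. Alternatives were the replicate block, each library left out, no trend, probes above the median, quantile normalization on top, slide as a block or alone, fits of other array sets and any probe of a gene. Leaving out libraries that stood apart 2 at a time was added after seeing the data.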

Additional observations from a re-analysis of the deposited data

Results flagged for a closer look

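Pltp, the phospholipid transfer protein, was higher in every Glo1+/- than every WT library in adipose tissue (difference 0.33) and lower in every one in liver (−0.58, and −0.27 without WT liver 2). Plin2, the lipid droplet protein, was higher in every Glo1+/- library in kidney (0.44) and lower in every one in adipose tissue (−0.32). The opposite moves of both were singled out for that reason. Among all probes, 17.5% had genotypes free of overlap in adipose tissue, 17.6% in liver and 15.4% in kidney, in either direction. Over the 4 tissues, the interaction of genotype and tissue gave adjusted p = 0.31 for Pltp and 0.62 for Plin2 in limma's F test, so neither difference between tissues passed the test. The 2 tissues of each pair were not tested against each other.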

How the results depend on the processing

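With the replicate number as a block, the count of apolipoproteins called between genotypes in adipose tissue went from 0 to 1, and the block changed no other count of members by over 1.5 times. For genotype differences the block joined WT and Glo1+/- libraries of the same number within a tissue. For tissue comparisons it joined libraries of the same genotype and number across tissues. The block within a tissue also brought 2 list genes past the test in adipose tissue, and Plin2 in kidney lost its call. Leaving out each library in turn gave 0 to 2 called members in adipose tissue, 0 to 1 in liver, 0 in kidney, aorta and the average, and 0 to 2 for the interaction. Between tissues it gave 6 to 9 for liver minus adipose tissue, 8 to 9 for liver minus kidney, 8 to 9 for liver minus aorta, 6 to 8 for kidney minus adipose tissue, 3 to 5 for kidney minus aorta and 6 to 7 for adipose tissue minus aorta. In liver the slide block and the second slide alone each gave 1 called member, and both rest on WT liver 3 as the only WT library. In aorta, leaving out WT aorta 3 and Glo1+/- aorta 3 gave 1.

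Signs turned among small or single-library differences, and the cause was not tested. Leaving out 1 library in liver gave −0.051 to 0.0047 for Apoa2 and −0.022 to 0.018 for Apoc1. In kidney it gave −0.043 to 0.13 for Apoa4, −0.048 to 0.060 for Apoa5, −0.66 to 0.10 for Apoc3 and −0.019 to 0.20 for Apoh. In aorta it gave −0.70 to 0.94 for Apoa1, −0.89 to 1.29 for Apoa2, −0.049 to 0.012 for Apoa4, −0.043 to 0.22 for Apoa5, −0.33 to 0.068 for Apoc1, −0.18 to 0.72 for Apoc3 and −0.15 to 1.30 for Apoc4. For the average over tissues it gave −0.032 to 0.040 for Apoa5, −0.10 to 0.20 for Apoe and −0.079 to 0.10 for Apom. For kidney minus aorta it gave −0.53 to 0.47 for Apoa1, −0.034 to 1.18 for Apoa2 and −0.11 to 0.024 for Apoa5.

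In liver, quantile normalization on top gave Apoa1 0.0028, Apoa2 0.028, Apoc1 0.026, Apoc3 0.016 and Apoe 0.025, and both slide settings gave Apoc1 0.014 and Apoe 0.030. In kidney both slide settings gave Apoa4 −0.15 and Apoh −0.067. Without WT aorta 3 and Glo1+/- aorta 3 the aortic differences were −0.95 for Apoa1, −1.26 for Apoa2, −0.036 for Apoa5, 0.067 for Apoc1, −0.28 for Apoc3 and −0.23 for Apoc4. Without WT kidney 1 and Glo1+/- aorta 3 the average differences were −0.011 for Apoa5, −0.070 for Apoe and −0.021 for Apom, and Apoa1 in kidney minus aorta was 0.012. Signal near the top of the range in liver and near the floor elsewhere limits what these arrays can show.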
